A study of Mus musculus with 6 samples.

Results

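The 38 genes described here encode the enzymes of glycolysis, the carriers that bring glucose in and lactate out, the core enzymes of the pentose phosphate pathway, and the hypoxia inducible factor HIF-1α with its hydroxylases and targets. They were chosen by name and pathway, and all 38 were among the 55291 genes of the count table. RNA was sequenced from bone marrow-derived macrophages (BMDMs), which are macrophages grown from marrow progenitors with the growth factor M-CSF, here supplied by L929-conditioned medium for 7 days with no further stimulus. The marrow came from 3 WT and 3 PYK2 KO mice on the C57BL/6 strain, 1 library per mouse, numbered 1, 5 and 6 for WT and 2, 3 and 4 for PYK2 KO. PYK2 KO mice lack the tyrosine kinase PYK2, encoded by Ptk2b, in the whole animal, so the marrow progenitors also lacked it. The age and sex of these mice are not given in the sources used here. The comparison asks how the transcriptome of macrophages differs without PYK2.

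Glycolysis splits glucose into pyruvate, and macrophages raise it, with lactate export, when they are activated. The pentose phosphate pathway draws glucose 6-phosphate off to make NADPH, which macrophages use for the oxidative burst and for protection against oxidants, and ribose for nucleotides. HIF-1α is hydroxylated and degraded when oxygen is present. When it is stabilized, by low oxygen or by inflammatory signals, it induces many glycolytic genes together with regulators of mitophagy, collagen hydroxylation and its own hydroxylases.

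The libraries held 2857097 to 3917207 counts, and 9815 genes passed the filter on low counts. Ptk2b, the gene deleted in PYK2 KO mice, had 568 to 737 counts in the WT libraries and 64 to 71 in the PYK2 KO libraries, a log2 fold change of -3.15 (SE 0.10, adjusted p = 1.03e-11, edgeR). All 8 macrophage markers were counted in these cells, with summed levels of 29150 to 29900 CPM (a gene's count relative to the size of its library) in the WT libraries and 30330 to 31330 CPM in the PYK2 KO libraries. Most of this sum was the marker Lyz2, at 23536.1 to 24430.5 CPM in WT libraries and 24815.1 to 25925.4 CPM in PYK2 KO. The 9 neutrophil markers summed to between 129 and 181 CPM in WT libraries and between 134 and 232 CPM in PYK2 KO, and the 5 monocyte markers to 30.4 to 33.0 CPM and 33.4 to 44.4 CPM. The 6 erythroid markers were at 0 in every library, as were 4 of 5 B cell, 4 of 6 dendritic cell, 3 of 5 T cell and 3 of 6 stromal markers. In bulk RNA, fewer cells of a type and less RNA per cell cannot be told apart, and the part of these other cells in the values below was not tested.

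None of the genes of glycolysis, the pentose phosphate pathway or the hypoxia response passed the test between PYK2 KO and WT macrophages. Of the 38, 37 passed the filter on low counts, and 0 of these 37 had a p under 0.05 in edgeR (quasi-likelihood F test) after Benjamini-Hochberg adjustment over all genes tested, where 0.255% of the 9815 genes did. At an unadjusted p under 0.05, 3 members were higher in PYK2 KO (P4ha2, Egln3 and Pgam1) and 0 were lower, where 6.03% of all genes passed in either direction and 3.4% were higher. DESeq2, which gave no p for Gapdh, gave 0 members at an adjusted and 0 at an unadjusted p under 0.05, and limma voom gave 0 and 2. The 3 became 8 without PYK2 KO 4, 0 without PYK2 KO 3 and 1 without WT 1, WT 5 or PYK2 KO 2, while 0 members passed the adjusted threshold in any of these. Levels are given as CPM with TMM factors, which correct for library composition. Since MARS-seq counts the 3' ends of transcripts and CPM is not per length, levels are compared between libraries and not between genes.

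The log2 fold changes, PYK2 KO over WT, centred close to 0. Their median over the 37 members was 0.033, beside 0.0019 over all genes tested, with 25 members above 0 and 12 below, where 50.5% of all genes were above 0. The members' median ranged from 0.0062 without WT 1 to 0.099 without PYK2 KO 4 when 1 library was left out. The 95% confidence interval lay within 0.5 of 0 on the log2 scale, a change of at most 1.41-fold, for 28 of the 37 members and for 59.8% of all genes. It lay within 1 of 0, at most 2-fold, for 34 of the 37 and for 92.2% of all genes. In 3 members every PYK2 KO library lay above every WT library (P4ha2, Kdm3a and Higd1a), and in 0 members did they all lie below, where 10.2% of all genes were apart in either direction, 5.17% higher and 5.07% lower in PYK2 KO.

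**Figure D1:**
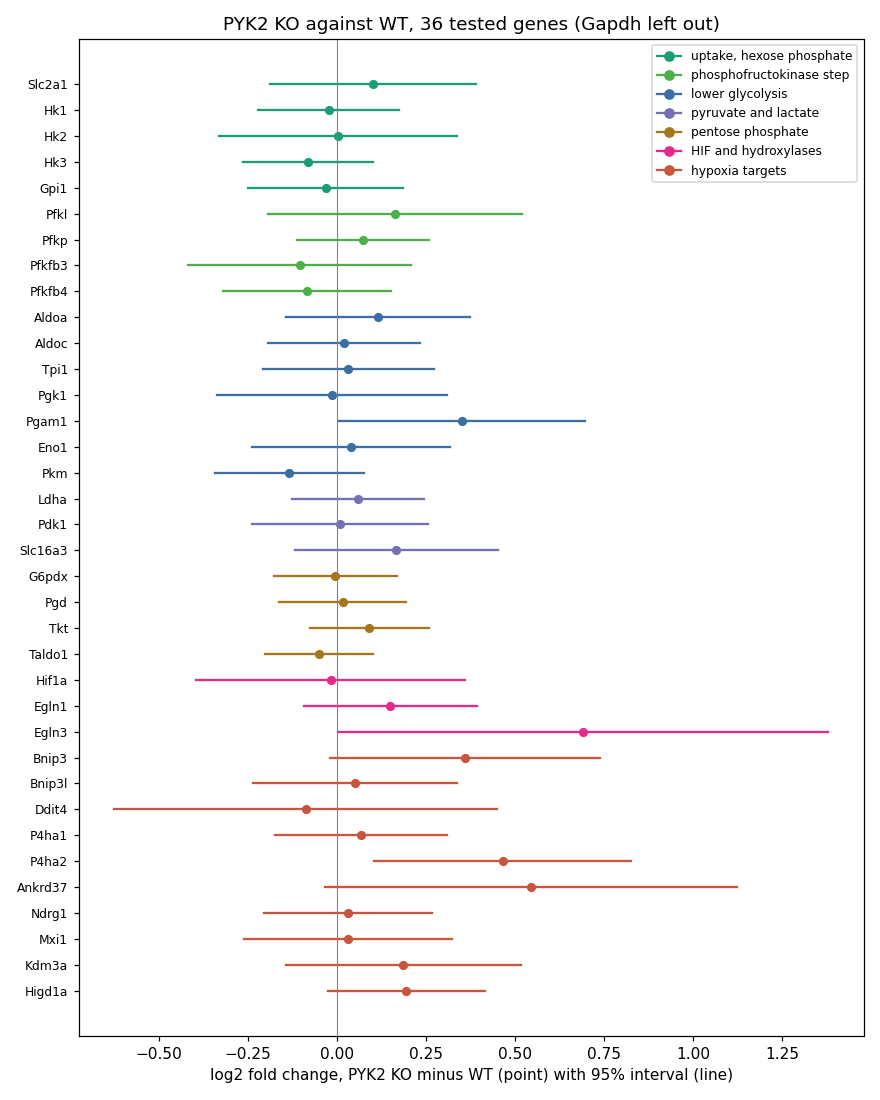
Log2 fold change of PYK2 KO over WT for 36 tested genes, as points with 95% confidence intervals as lines, coloured by role; Gapdh, with a log2 fold change of -0.94, is left out for scale. The intervals of P4ha2, Egln3 and Pgam1 lie above 0, those of the other 33 genes include 0, and those of the pentose phosphate genes lie within 0.5 of 0.

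Glucose enters through the transporter GLUT1, encoded by Slc2a1, and is phosphorylated by hexokinases before glucose 6-phosphate isomerase, encoded by Gpi1, makes fructose 6-phosphate. Of these 5 genes 2 were above and 3 below 0, from -0.08 to 0.10 on the log2 scale, and all 5 intervals lay within 0.5 of 0. Hk3, a hexokinase found in myeloid cells, read 615, 564 and 616 CPM in WT 1, 5 and 6 and 621, 555 and 520 CPM in PYK2 KO 2, 3 and 4. These ranges overlapped, and the log2 fold change was -0.08 (SE 0.09, 95% interval -0.26 to 0.10, adjusted p = 0.95, edgeR). Slc2a1 ranged from 88.6 to 114 CPM in WT libraries and from 80.8 to 122 CPM in PYK2 KO.

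Phosphofructokinase commits sugar to glycolysis, and the bifunctional enzymes encoded by Pfkfb3 and Pfkfb4 set the level of its activator, fructose 2,6-bisphosphate. The 4 genes of this step had log2 fold changes from -0.10 to 0.16. Pfkl, the liver-type subunit, had 39.6, 64.7 and 61.0 CPM in WT 1, 5 and 6 and 73.1, 61.0 and 50.1 CPM in PYK2 KO 2, 3 and 4. The lowest value was WT 1 and the groups overlapped, with a log2 fold change of 0.16 (SE 0.17, adjusted p = 0.949, edgeR). Pfkp, the platelet-type subunit, was 111, 127 and 128 CPM in WT and 125, 134 and 127 CPM in PYK2 KO, a log2 fold change of 0.07 (SE 0.09).

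The later steps of glycolysis run from aldolase to pyruvate kinase. Pgam1, the phosphoglycerate mutase that makes 2-phosphoglycerate, had the smallest p here, with 18.1, 18.8 and 23.5 CPM in WT 1, 5 and 6 and 29.2, 24.9 and 22.4 CPM in PYK2 KO 2, 3 and 4. PYK2 KO 4 lay below WT 6, so the groups overlapped, and the log2 fold change of 0.35 (SE 0.16, 95% interval 0.01 to 0.70) had an unadjusted p of 0.0466 and an adjusted p of 0.82 in edgeR. Pkm, pyruvate kinase, had 1921, 2039 and 2267 CPM in WT and 2094, 2007 and 1576 CPM in PYK2 KO. Its log2 fold change was -0.13 (SE 0.10, 95% interval -0.34 to 0.08, adjusted p = 0.935, edgeR), with PYK2 KO 4 as the low library. It was -0.02 without PYK2 KO 4, -0.07 without WT 6 and -0.21 without PYK2 KO 2. The other genes of this stretch apart from Gapdh, which were Aldoa, Aldoc, Tpi1, Pgk1 and Eno1, had log2 fold changes from -0.01 to 0.12.

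Pyruvate is reduced to lactate by lactate dehydrogenase and leaves through the monocarboxylate carrier MCT4, or is kept from the mitochondrial dehydrogenase complex by its kinase, encoded by Pdk1. Ldha read 996, 1097 and 1139 CPM in WT 1, 5 and 6 and 1231, 1126 and 1012 CPM in PYK2 KO 2, 3 and 4. With a log2 fold change of 0.06 (SE 0.09, 95% interval -0.12 to 0.24, adjusted p = 0.969, edgeR), the genotypes overlapped. Slc16a3, which encodes MCT4, was 161, 173 and 193 CPM in WT and 222, 227 and 145 CPM in PYK2 KO, so 2 PYK2 KO libraries lay above all WT and the third below. Its log2 fold change was 0.17 (SE 0.13, adjusted p = 0.935, edgeR), and it was 0.35 without PYK2 KO 4 and 0.057 without PYK2 KO 3. Pdk1 had a log2 fold change of 0.01 (SE 0.12).

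The pentose phosphate genes varied little between libraries. G6pdx and Pgd encode the NADPH-producing dehydrogenases, and Tkt and Taldo1 the transketolase and transaldolase that return sugars to glycolysis. All 4 intervals lay within 0.5 of 0, and the summed level was 4180, 4145 and 4172 CPM in WT 1, 5 and 6 and 4392, 4160 and 3963 CPM in PYK2 KO 2, 3 and 4. Taldo1 read 1759, 1830 and 1709 CPM in WT and 1793, 1648 and 1679 CPM in PYK2 KO, with a log2 fold change of -0.05 (SE 0.07, 95% interval -0.20 to 0.10, adjusted p = 0.969, edgeR). Tkt read 837, 766 and 834 CPM in WT and 918, 854 and 824 CPM in PYK2 KO, with a log2 fold change of 0.09 (SE 0.08, 95% interval -0.08 to 0.26, adjusted p = 0.935, edgeR). G6pdx differed by -0.0036 on the log2 scale (95% interval -0.18 to 0.17, and 0.0055 under upper quartile normalization) and Pgd by 0.02 (95% interval -0.16 to 0.20).

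Gapdh stood apart from every other member, and not by genotype. The enzyme it encodes oxidizes glyceraldehyde 3-phosphate, and its transcript is widely used as a reference in PCR. Its counts were 104, 3473 and 2854 in WT 1, 5 and 6 and 67, 53 and 3323 in PYK2 KO 2, 3 and 4. So 1 WT and 2 PYK2 KO libraries were low, at 18.4 to 26.6 CPM, and the other 3 were high, at 972 to 1000 CPM, with a gap of 36.6-fold between the highest low and the lowest high library. On the log2 scale, after adding 0.1 CPM, the gap was 5.19, the second largest of the 9815 genes tested, after that of Gm9522 (5.54). The log2 fold change between genotypes was -0.94 (SE 1.04, 95% interval -3.15 to 1.27, adjusted p = 0.952, edgeR). Without PYK2 KO 4 it was -5.05, and over the 6 fits that each left out 1 library it ranged from -5.05 to -0.38. Under the other settings, with every library kept, it ranged from -2.34 to -0.91 and was -1.88 with limma voom. Tpi1, whose enzyme acts just before GAPDH, showed no such split, at 448 to 572 CPM in WT libraries and between 455 and 612 CPM in PYK2 KO.

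Gapdh lies on chromosome 6 from 125161715 to 125166467 (GRCm38, the assembly also called mm10, minus strand), and the last 300 bases of its transcript resemble many other loci. Sequence of 132 other annotated genes matched this 3' end at 95% identity or more over at least 50 bases, and 13 of them were identical over all 300 bases. Of the 132, 131 were in the count table, where they summed to 588, 419 and 386 counts in WT 1, 5 and 6 and to 446, 370 and 338 counts in PYK2 KO 2, 3 and 4. Their sum was thus below the Gapdh count in the 3 high libraries and above it in the 3 low ones. How reads that match several loci were assigned is not given in the sources used here, and its part in the Gapdh values was not tested. For the other members with more than 3 counts in all, such look-alikes held at most 33 counts, and at most 2.22% of the member's own count. Since the values of Gapdh are uncertain, sums over glycolysis genes are given without it.

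**Figure D2:**
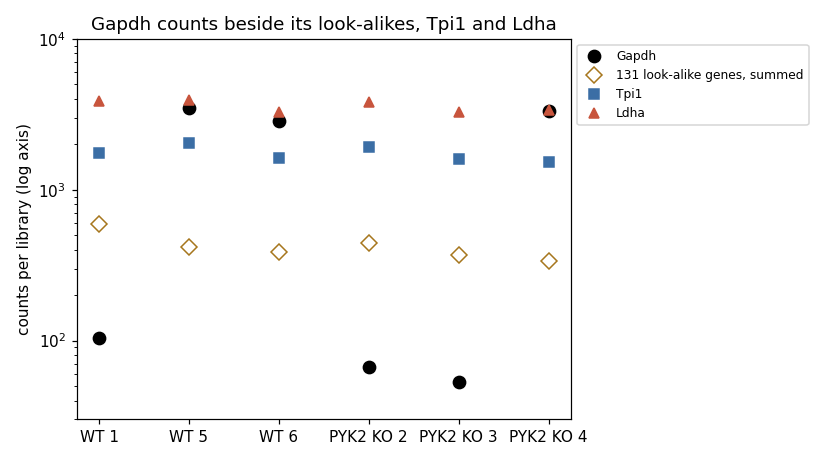
Counts per library, on a log axis, of Gapdh, of its 131 look-alike genes summed, and of 2 other genes of glucose breakdown, Tpi1 and Ldha. Gapdh is at 53 to 104 counts in WT 1, PYK2 KO 2 and PYK2 KO 3 and at 2854 to 3473 in the other 3 libraries, while the look-alikes, Tpi1 and Ldha vary far less.

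Many glycolysis genes were low in the same libraries within each genotype. The 19 genes without Gapdh summed to 6753, 7784 and 8281 CPM in WT 1, 5 and 6 and to 8310, 7952 and 6612 CPM in PYK2 KO 2, 3 and 4. WT 1 and PYK2 KO 4 were thus the low libraries of their genotypes, and the genotype means of 7606 ± 779 and 7625 ± 895 CPM (SD, n = 3 each) differed by less than the spread between mice. For 13 of the 20 glycolysis genes, 65%, WT 1 was the lowest WT library and PYK2 KO 4 the lowest PYK2 KO library, where 14.2% of all genes tested had this order. Among the 13 hypoxia response genes tested, 2 did, or 15.4%. WT 1 and PYK2 KO 4 were named as low from the sum of 19 of these same 20 glycolysis genes, which can raise the 65%. The same libraries lay together in the whole transcriptome: the first principal component of the differences from the genotype means was -14.97 in WT 1 and -14.14 in PYK2 KO 4, 12.59 and 13.62 in WT 6 and PYK2 KO 2, and 2.39 and 0.52 in WT 5 and PYK2 KO 3. The labels give nothing that these libraries share, and the part of this difference in the members' values was not tested. With this component as a covariate, 0 members passed the adjusted threshold in edgeR.

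**Figure D3:**
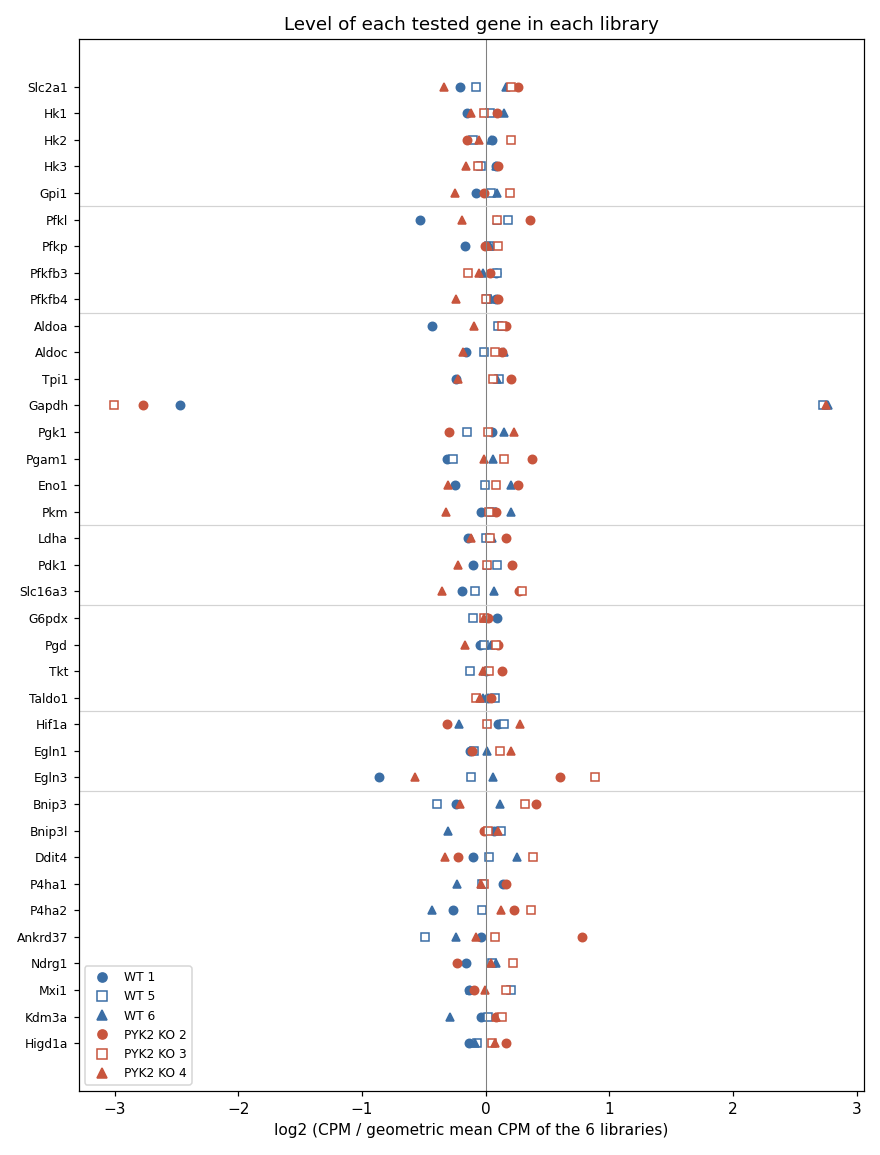
Level of the 37 tested genes in each library, as log2 of CPM over the geometric mean of the 6 libraries, with WT in blue and PYK2 KO in red and grey lines between roles. Outside Gapdh most points lie close to 0, and WT 1 and PYK2 KO 4 lie to the left for many glycolysis genes.

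The genes of the HIF pathway and its targets lay more often above than below 0, by small amounts. Of 14 genes, 13 were tested, with 11 above and 2 below 0 and a median log2 fold change of 0.15, beside 0.0019 over all genes. Of all genes tested, 50.5% lay above 0, and 6.03% had an unadjusted p under 0.05, 3.4% as higher in PYK2 KO. Among the 13, P4ha2 and Egln3 had an unadjusted p under 0.05, both higher, and none had an adjusted p under 0.05 in edgeR. The 14 genes summed to 428, 452 and 431 CPM in WT 1, 5 and 6 and to 465, 508 and 468 CPM in PYK2 KO 2, 3 and 4, so the PYK2 KO libraries all lay above the WT ones. The means were 437 ± 13.3 CPM in WT libraries and 480 ± 23.8 CPM in PYK2 KO (SD, n = 3 each). No test was made of this sum, since the list was chosen with earlier results of these data known.

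Single markers of neutrophils and monocytes were also higher in PYK2 KO at an unadjusted p under 0.05, with smaller p-values than any of the 37 members tested. Of all genes tested, 3.4% were higher at this p, 5.17% were apart with PYK2 KO higher, and 50.5% lay above 0. Of the 9 neutrophil markers 6 were tested, with 4 above and 2 below 0. S100a8 was at 0.10, Ngp at 0.19, Camp at -0.26 and Ltf at -0.09 on the log2 scale. Of the 5 monocyte markers 3 were tested, all above 0. Ccr2, a monocyte marker with too few counts to test, was mostly lower in PYK2 KO. It had 12, 7 and 4 counts in WT 1, 5 and 6 and 3, 6 and 1 in PYK2 KO 2, 3 and 4. S100a9, a calcium-binding protein gene of neutrophils and monocytes, read 70.7, 29.95 and 34.0 CPM in WT 1, 5 and 6 and 50.7, 93.2 and 103 CPM in PYK2 KO 2, 3 and 4, and the groups overlapped at WT 1. Its log2 fold change was 0.85 (unadjusted p = 0.00596, adjusted p = 0.537, edgeR). For Mpo, the myeloperoxidase gene, every PYK2 KO library lay above every WT library, at 1.40 to 3.36 CPM in WT and at 3.53 to 6.26 CPM in PYK2 KO, a log2 fold change of 1.19 (unadjusted p = 0.00908, adjusted p = 0.591, edgeR). The monocyte marker Ly6c2 was apart in the same way, at 6.90 to 10.52 CPM in WT and at 12.8 to 14.2 CPM in PYK2 KO, a log2 fold change of 0.64 (unadjusted p = 0.00891, adjusted p = 0.591, edgeR). Their part in the values of the hypoxia response genes was not tested.

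**Figure D4:**
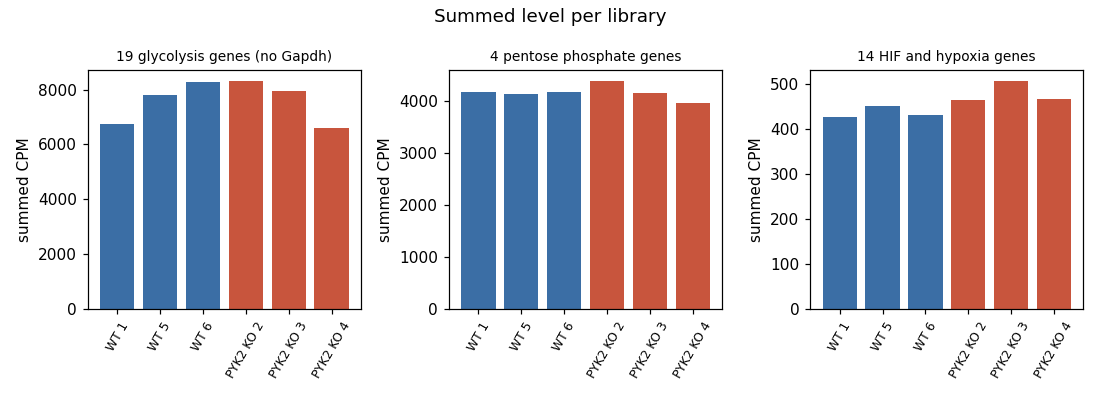
Summed CPM per library of the 19 glycolysis genes without Gapdh, the 4 pentose phosphate genes and the 14 HIF pathway and hypoxia target genes, as bars from 0 with WT in blue and PYK2 KO in red. WT 1 and PYK2 KO 4 are low in the first panel, and in the last the PYK2 KO bars (465 to 508 CPM) are above the WT bars (428 to 452 CPM).

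Hif1a itself, at 17.2 to 22.1 CPM in WT libraries and 16.0 to 24.1 CPM in PYK2 KO, had a log2 fold change of -0.02 (SE 0.18, 95% interval -0.40 to 0.36). HIF-1α is controlled mainly through the stability of the protein, which counts of RNA do not measure. Egln1, the main prolyl hydroxylase that marks HIF-1α for degradation, read 48.0, 49.0 and 52.6 CPM in WT 1, 5 and 6 and 48.4, 56.8 and 60.2 CPM in PYK2 KO 2, 3 and 4. With overlap at PYK2 KO 2, its log2 fold change was 0.15 (SE 0.11, 95% interval -0.09 to 0.39, adjusted p = 0.935, edgeR). Egln3, a hydroxylase gene that HIF induces, had 5.36, 8.96 and 10.2 CPM in WT and 14.8, 18.0 and 6.56 CPM in PYK2 KO. PYK2 KO 2 and 3 lay above all WT libraries and PYK2 KO 4 between them, and the log2 fold change of 0.69 (SE 0.32, 95% interval 0.0035 to 1.38) had an unadjusted p of 0.049 and an adjusted p of 0.823 in edgeR. Leaving out 1 library at a time moved it between 0.40 and 1.03, the latter without PYK2 KO 4.

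Among the targets, P4ha2 had the smallest p of the 37 genes tested. It encodes a catalytic subunit of the prolyl 4-hydroxylase that modifies collagen, and read 14.6, 17.1 and 13.0 CPM in WT 1, 5 and 6 and 20.5, 22.5 and 19.1 CPM in PYK2 KO 2, 3 and 4. Every PYK2 KO library lay above every WT library, with a log2 fold change of 0.47 (SE 0.17, 95% interval 0.10 to 0.83), an unadjusted p of 0.0147 and an adjusted p of 0.644 in edgeR. An exact two-sided permutation test gave p = 0.1, the smallest that 3 against 3 libraries allow and the value of every gene whose groups are apart. P4ha1, which encodes the other main catalytic subunit, differed by 0.07 on the log2 scale (SE 0.11). Ndrg1, a stress-induced gene, read 94.0, 109 and 111 CPM in WT and 89.5, 122 and 108 CPM in PYK2 KO, a log2 fold change of 0.03 (SE 0.11, 95% interval -0.20 to 0.27).

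The next 4 targets are described because of their values. Ankrd37, which encodes an ankyrin repeat protein, had 7.66, 5.60 and 6.66 CPM in WT 1, 5 and 6 and 13.5, 8.31 and 7.45 CPM in PYK2 KO 2, 3 and 4, a log2 fold change of 0.54 (SE 0.27, 95% interval -0.03 to 1.12, adjusted p = 0.859, edgeR). The size rested on PYK2 KO 2, without which it was 0.24. Bnip3, a mitophagy receptor of the outer mitochondrial membrane, had 23.0, 20.7 and 29.4 CPM in WT and 35.9, 33.9 and 23.5 CPM in PYK2 KO, a log2 fold change of 0.36 (SE 0.18, 95% interval -0.02 to 0.74, adjusted p = 0.857, edgeR). Its PYK2 KO 4 value lay among the WT libraries. Higd1a, a mitochondrial inner membrane protein, was 48.0, 50.1 and 49.8 CPM in WT and 59.0, 54.7 and 55.4 CPM in PYK2 KO, with a log2 fold change of 0.20 (SE 0.10, 95% interval -0.03 to 0.42, adjusted p = 0.881, edgeR). Kdm3a, a histone H3 lysine demethylase, was 19.2, 19.9 and 16.1 CPM in WT and 20.9, 21.5 and 20.9 CPM in PYK2 KO, a log2 fold change of 0.19 (SE 0.16, adjusted p = 0.935, edgeR). The groups were apart for Higd1a and Kdm3a, where 10.2% of all genes were apart in either direction. Their unadjusted p was 0.0785 and 0.247 in edgeR. The exact two-sided permutation test gave p = 0.1 for both, as it must for any gene whose 3 against 3 libraries are apart.

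**Figure D5:**
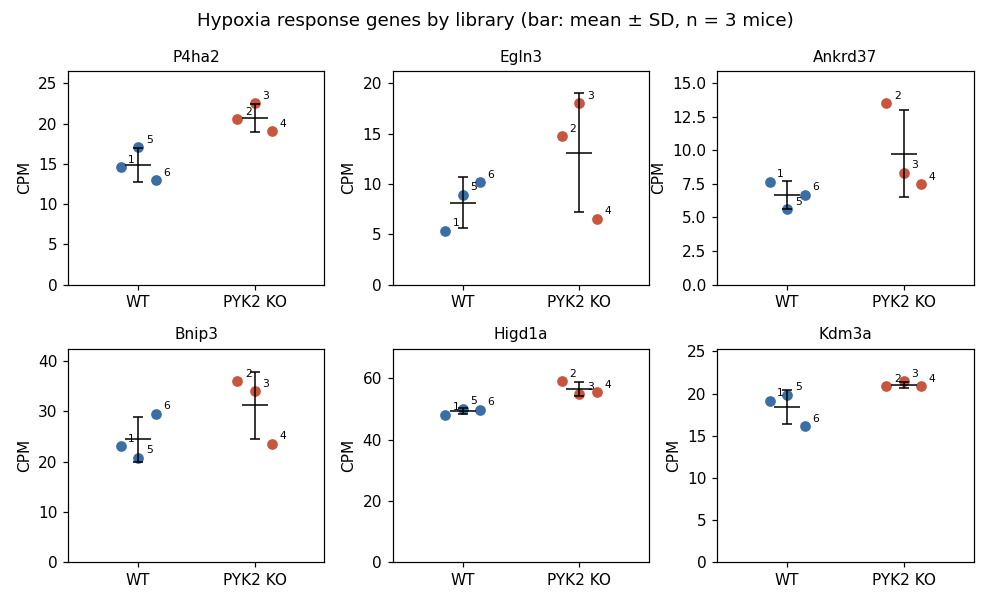
CPM of 6 hypoxia response genes in each library, with the library number beside each point and the mean ± SD of 3 mice as a bar; each vertical axis starts at 0. The genotypes do not overlap for P4ha2, Higd1a and Kdm3a, while PYK2 KO 4 lies within the WT range for Egln3, Ankrd37 and Bnip3.

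Of the remaining targets, the mitophagy receptor gene Bnip3l, the MYC antagonist gene Mxi1 and Ddit4, which encodes an inhibitor of mTORC1, had log2 fold changes of 0.05 (SE 0.13), 0.03 (SE 0.14) and -0.09 (SE 0.25). Bnip3l lies 704 kb from Ptk2b on chromosome 14. Adm, which encodes the vasodilator peptide adrenomedullin, had 1 count in WT 5 and 0 in the other 5 libraries and was not tested. A count of 0 allows up to 3 counts, or 0.766 to 1.05 CPM in these libraries, so levels of Adm up to these could have gone uncounted in the libraries at 0.

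The sequences before the RefSeq starts of P4ha2, Egln3, Ankrd37 and Bnip3, the hypoxia response genes with the 4 smallest p-values, are shown since HIF acts at the letters ACGTG or GCGTG in the DNA next to its targets. Each is the 250 bases before the RefSeq transcription start in GRCm38.p6, written 5' to 3' on the gene's strand, and the capitals mark ACGTG or GCGTG on either strand, with overlapping matches counted separately. The P4ha2 sequence is chr11:54100674-54100923 on the plus strand, with 3 matches. The others, all on the minus strand, are chr12:54203875-54204124 for Egln3 with 1 match, chr8:45999851-46000100 for Ankrd37 with 4 and chr7:138909507-138909756 for Bnip3 with 5. RefSeq starts can lie inside the gene as the annotation of the reference genome draws it. The whole P4ha2 sequence lies within that gene (chromosome 11, 54100095 to 54131665) and the whole Ankrd37 sequence within its own (chromosome 8, 45996902 to 46005707), so both are downstream of the annotated 5' end of the gene, and the Egln3 sequence lies outside its gene (chromosome 12, 54178981 to 54203860). In this annotation, 17 bases of the Ankrd37 sequence lie in an exon, which is UTR or coding according to the transcript, and 13 bases of the Bnip3 sequence in an exon of a retained-intron transcript.
P4ha2: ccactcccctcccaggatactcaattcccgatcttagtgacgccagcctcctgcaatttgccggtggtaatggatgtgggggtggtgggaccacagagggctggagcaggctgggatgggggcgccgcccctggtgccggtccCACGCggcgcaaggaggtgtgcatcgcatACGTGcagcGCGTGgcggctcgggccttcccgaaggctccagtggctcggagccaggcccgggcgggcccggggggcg
Egln3: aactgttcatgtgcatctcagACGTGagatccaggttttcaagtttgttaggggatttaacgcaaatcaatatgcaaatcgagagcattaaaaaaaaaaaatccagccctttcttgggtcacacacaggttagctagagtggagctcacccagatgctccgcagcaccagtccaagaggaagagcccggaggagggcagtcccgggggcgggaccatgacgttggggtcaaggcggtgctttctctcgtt
Ankrd37: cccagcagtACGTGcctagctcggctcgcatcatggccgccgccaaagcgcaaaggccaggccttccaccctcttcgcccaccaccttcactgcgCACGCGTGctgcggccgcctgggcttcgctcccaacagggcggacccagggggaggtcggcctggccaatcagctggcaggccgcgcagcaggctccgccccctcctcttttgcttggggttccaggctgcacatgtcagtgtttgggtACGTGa
Bnip3: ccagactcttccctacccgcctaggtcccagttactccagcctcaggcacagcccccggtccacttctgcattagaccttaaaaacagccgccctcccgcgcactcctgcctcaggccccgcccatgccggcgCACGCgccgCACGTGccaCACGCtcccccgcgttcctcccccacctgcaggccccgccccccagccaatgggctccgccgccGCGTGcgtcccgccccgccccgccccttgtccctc

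These letters were common in the promoters of the genes described, though not in every one. RefSeq windows of 300 bases, 250 before and 50 after a start, matched 36 of the 38 genes with 51 windows, and 41 of the 51 windows, 80.4%, held the letters. Of all 32851 windows 43.8% did, and of the 11378 windows with at least 15 CG pairs 71.4%; the members' windows had a median of 22 CG pairs and all windows 7. The share was 81.2% for the HIF pathway and hypoxia target genes and 80.0% for the other members. A match is a description of the letters in the window and not of binding.

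Of 100 further genes of glycolysis and pyruvate use, the pentose phosphate pathway, HIF and its targets, 73 were tested, with 40 above and 33 below 0 and 0 with an adjusted p under 0.05 in edgeR. At an unadjusted p under 0.05, 4 were lower in PYK2 KO and 0 were higher, where 2.63% of all genes were lower and 3.4% were higher. Jmjd6, an oxygenase gene, read 46.2, 44.8 and 49.1 CPM in WT 1, 5 and 6 and 38.8, 36.7 and 34.6 CPM in PYK2 KO 2, 3 and 4, so the groups were apart, with a log2 fold change of -0.35, an unadjusted p of 0.00929 and an adjusted p of 0.591 in edgeR. The other 3 were Pfkm, the muscle-type phosphofructokinase gene, at -0.54 (adjusted p = 0.787, edgeR), Ldhb, the second lactate dehydrogenase subunit gene, at -0.62 (adjusted p = 0.82, edgeR), and the ubiquitin ligase subunit gene Wsb1 at -0.26 (adjusted p = 0.719, edgeR). Of these 4, Jmjd6 alone had an unadjusted p under 0.05 in DESeq2, and likewise in edgeR without WT 1. The log2 fold change of Pfkm was -0.35 without WT 1 and -0.28 without PYK2 KO 4, and that of Ldhb was -1.07 without PYK2 KO 2 and -0.38 without PYK2 KO 4. Over the fits that each left out 1 library, Jmjd6 ranged from -0.39 to -0.30 and Wsb1 from -0.34 to -0.20. For the 29 further hypoxia targets tested the median was 0.044 on the log2 scale, and 16 lay above and 13 below 0.

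Vegfa, the angiogenic growth factor gene that HIF induces, was 118, 124 and 129 CPM in WT 1, 5 and 6 and 129, 144 and 95.7 CPM in PYK2 KO 2, 3 and 4. The lowest and the highest library were both PYK2 KO, and the log2 fold change was -0.0062, and 0.0027 under upper quartile normalization. Epas1, which encodes HIF-2α, differed by 0.24 on the log2 scale, Arnt, the shared HIF partner, by -0.09 and Vhl, the ubiquitin ligase subunit that binds hydroxylated HIF-1α, by 0.19, each with an adjusted p of 0.935 or more in edgeR.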

How the data were processed

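Bulk MARS-seq libraries were sequenced by the authors on an Illumina NovaSeq, and reads were mapped and counted per gene with the UTAP pipeline. The submitters' processing notes name cutadapt, STAR and mm10; versions, gene annotation, strand, and the handling of molecular identifiers and of multi-mapping reads are not given in the sources used here. The deposited values are whole-number counts per gene, not normalized. Intervals and floors cover the spread between libraries or counting error only.

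From these counts, genes were filtered (filterByExpr, minimum count 10 in 3 libraries), scaled by TMM and tested with edgeR 4.0.16 in R 4.3.3 (quasi-likelihood F test on genotype, two-sided, Benjamini-Hochberg, threshold 0.05). Each standard error is the fold change on the log2 scale over the square root of F. Alternatives included DESeq2 1.42.0 and limma 3.58.1 voom, other normalizations, filters and tests, a residual component as covariate and leaving out each library. The script was tested on simulated data. No same-genotype pair of libraries agreed within sampling noise (chi-square per degree of freedom 2.23 or more).

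The members and lists were chosen with earlier results of these data known. Values in every library are given for a gene with an unadjusted p under 0.05, the smallest p or the highest mean CPM of its role, or too few counts. Gapdh, Ankrd37, Bnip3, Higd1a, Kdm3a and the markers S100a9, S100a8, Mpo, Ngp, Camp, Ltf, Ly6c2, Ccr2 and Lyz2 are described beyond this rule, after their values were seen. Of the further pathway genes, those with an unadjusted p under 0.05 and Vegfa, Epas1, Arnt and Vhl are named. Promoters came from RefSeq, which had no window for Bnip3l and Ndrg1 here, and look-alikes were sought in the reference transcripts.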

Additional observations from a re-analysis of the deposited data

How the results depend on the processing

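No paired analysis was possible because no number is shared, WT having 1, 5 and 6 and PYK2 KO 2, 3 and 4. The count of genes past the adjusted threshold was 25 and became 159 with no filter, 45 with the likelihood ratio test, 62 with the residual component as covariate and 14 to 34 when 1 library was left out. The count of members past it was 0 in all of these except with no filter, where it was 1, Gapdh, whose genotypes overlap. The count of members at an unadjusted p under 0.05 was 3, and became 6 with no filter, 0 with DESeq2 and 0 to 8 when 1 library was left out, the 8 without PYK2 KO 4 and the 0 without PYK2 KO 3. Without WT 1, WT 5 or PYK2 KO 2 it was 1. Fold changes near 0 changed sign: Hk2 was -0.0015 with no filter and -0.0017 with voom, Pdk1 -0.00073 with the residual component, G6pdx 0.0055 with upper quartile normalization and 0.0032 with library totals alone, and Vegfa 0.0027 and 0.000204 with the same. The log2 fold changes that changed sign when 1 library was left out ranged as follows: Pfkl -0.038 to 0.31, Aldoa -0.048 to 0.22, Aldoc -0.054 to 0.11, Tpi1 -0.074 to 0.14, Pgk1 -0.15 to 0.12, Eno1 -0.093 to 0.18, Pdk1 -0.11 to 0.12, G6pdx -0.053 to 0.045, Pgd -0.032 to 0.10, Hif1a -0.18 to 0.12, Ndrg1 -0.074 to 0.14, Mxi1 -0.039 to 0.15, Hk2 -0.10 to 0.077, Hk1 -0.10 to 0.045, Gpi1 -0.15 to 0.074, Bnip3l -0.058 to 0.13, Ddit4 -0.33 to 0.0496, P4ha1 -0.015 to 0.17, Vegfa -0.14 to 0.15, Slc2a1 -0.0089 to 0.27, Ldha -0.012 to 0.13, Pfkfb4 -0.16 to 0.011. Those that kept their sign ranged as follows: Hk3 -0.15 to -0.025, Pfkp 0.0083 to 0.11, Pfkfb3 -0.15 to -0.065, Pgam1 0.24 to 0.47, Pkm -0.21 to -0.018, Slc16a3 0.057 to 0.35, Tkt 0.046 to 0.12, Taldo1 -0.087 to -0.023, Egln1 0.079 to 0.23, Bnip3 0.24 to 0.53, P4ha2 0.39 to 0.58, Ankrd37 0.24 to 0.71, Kdm3a 0.11 to 0.24, Higd1a 0.16 to 0.21, Epas1 0.19 to 0.33, Arnt -0.19 to -0.0079, Vhl 0.15 to 0.25. Left out in the same way, the medians ranged from -0.051 to 0.098 for the glycolysis genes, from -0.024 to 0.051 for the pentose phosphate genes and from 0.11 to 0.17 for the HIF pathway and hypoxia target genes. Why these values changed was not tested. With 3 mice per genotype, the intervals above set what could be seen: for 3 of the 37 members tested (Gapdh, Egln3 and Ankrd37) they reach past a 2-fold change.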
